A study of Mus musculus with 15 samples.

Results

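The cytochrome P450 genes of families 1 to 4 were described in liver tumours, in the non-tumorous livers of the same mouse line and in control livers. A gene was a member if its symbol began with Cyp1a, Cyp1b, Cyp3a, Cyp4 or Cyp2 followed by a letter, and if a probe set of that gene alone exceeded the 40th percentile of its array on at least 3 of the 15 arrays. Of 49 such genes with a probe set of their own, 43 met the rule, among 9528 genes tested in all. The other 6, Cyp2b13, Cyp2c65, Cyp2j13, Cyp3a16, Cyp4a31 and Cyp4f18, were dim and were not tested. The 43 members were 2 genes of subfamily Cyp1a, 1 of Cyp1b, 1 of Cyp2a, 3 of Cyp2b, 10 of Cyp2c, 7 of Cyp2d, 1 each of Cyp2e, Cyp2f, Cyp2g and Cyp2s, 3 of Cyp2j, 4 of Cyp3a, 2 of Cyp4a, 1 of Cyp4b, 4 of Cyp4f and 1 of Cyp4v. Of these, 28 were above the 40th percentile on every array, and 41 were above it on at least 1 array of every group. Cyp2s1 was above it on no tumour array and no heterozygous array, and Cyp2b9 on no non-tumorous knockout array. Cyp2b9 was above it on 3 heterozygous arrays and 1 tumour array, so it met the rule only through the heterozygous livers, where it was high.

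Cytochromes P450 of these families are haem enzymes of the endoplasmic reticulum that insert oxygen into drugs, environmental chemicals, steroids, bile acids and fatty acids, with electrons delivered by P450 reductase and cytochrome b5. Hepatocytes hold most of them, with some members concentrated around the central vein and a few around the portal vein. Many respond to ligand-activated receptors: Cyp1 genes to the aryl hydrocarbon receptor, Cyp2b, Cyp2c and Cyp3a genes to CAR and PXR, and Cyp4a genes to PPAR alpha, while growth hormone sets sex differences in several members of mouse liver.

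The study used mice in which Mdr2, now called Abcb4, was disrupted; this gene encodes the canalicular transporter that carries phosphatidylcholine into bile, and its loss leads to bile duct injury and later to liver tumours. All mice were 16 months old, and total RNA of frozen tissue was measured on Affymetrix expression arrays. There were 6 tumours from homozygous knockout mice, 6 samples of non-tumorous liver from homozygous knockout mice and 3 livers from heterozygous mice. Tumours 3 and 4 came from knockout mice 3 and 4, tumours 5-1 and 5-2 both from mouse 5 and tumours 6-1 and 6-2 both from mouse 6, and these 4 mice also gave the non-tumorous livers of the same numbers. Non-tumorous livers 1 and 2 came from mice without a tumour sample in the series. The heterozygous controls carry 1 disrupted allele, so no mouse with both alleles intact was compared, the sex of the mice is not given by the labels, and non-tumorous tissue was mostly taken from livers that also held a tumour.

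Series-wide values that bear on the members were as follows. Abcb4 had signals of 397, 681, 123, 238, 174 and 200.2 in tumours 3, 4, 5-1, 5-2, 6-1 and 6-2, of 177 to 306 in non-tumorous knockout livers, and of 1006, 779 and 886 in heterozygous livers. Every knockout sample lay below every heterozygous liver. The median signal of an array was 35.8 to 51.2. Hepatocyte markers were bright in all samples, with a summed signal over 13 markers of 70902 to 93376 in tumours, 87582 to 115960 in non-tumorous knockout livers and 114350 to 124990 in heterozygous livers. Of the 13 markers, 5 were called lower in tumours than in heterozygous livers. Macrophage markers summed to 1436 to 8327 in tumours, 3732 to 6033 in non-tumorous knockout livers and 2520 to 2731 in heterozygous livers. Of 10 tested, 5 were called higher in tumours and 2 in non-tumorous knockout livers than in heterozygous livers. Stellate cell and fibroblast markers summed to 924 to 3608 in tumours, 2467 to 5863 in non-tumorous knockout livers and 1520 to 1781 in heterozygous livers. Of their 10, 1 was called higher in tumours and 2 in non-tumorous knockout livers than in heterozygous livers. No bile duct, endothelial, lymphocyte or blood marker was called, out of 5, 8, 4 and 4 tested, in the fit of all 15 arrays. With only non-tumorous knockout and heterozygous livers in the fit, 7 macrophage, 6 stellate cell and fibroblast and 1 endothelial marker (Eng) were called higher in the knockout livers, and 2 hepatocyte markers (Tdo2 and Hpd) lower. The ratio of 3 prime to 5 prime actin signal, a measure of RNA integrity, was taken on the log2 scale. A higher value means relatively less 5 prime signal. This log2 ratio was 1.78 ± 0.21 in tumours (SD, n = 6), 2.09 ± 0.39 in non-tumorous knockout livers (SD, n = 6) and 2.99 ± 0.41 in heterozygous livers (SD, n = 3). It was lower than in heterozygous livers in both knockout groups (exact two-sided permutation tests, adjusted p = 0.0357 for each). The log2 ratio was 1.51 to 2.06 in tumours and 2.55 to 3.37 in heterozygous livers, without overlap. In non-tumorous knockout livers it was 1.74 to 2.74, and only liver 6 reached the heterozygous range. The ratio thus follows the groups, and a fit with it as a covariate, given below, cannot tell RNA integrity from group. The share of these markers and of RNA integrity in the P450 differences was not tested. In bulk tissue, fewer cells of a type and less RNA per cell cannot be told apart, and the p-values measure only the spread between these samples.

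Tumours were compared with heterozygous livers to ask how P450 expression of tumours differs from control liver of the same age. Tumours had lower signals for 9 of the 43 members and higher signals for none. The 9 were Cyp2b9, related to the phenobarbital-inducible enzymes, Cyp2c50 and Cyp2c54, epoxygenases of arachidonic acid, the Cyp2d genes Cyp2d10, Cyp2d13 and Cyp2d22, and the Cyp4f genes Cyp4f13, Cyp4f14 and Cyp4f15, which belong to a subfamily of fatty acid and leukotriene hydroxylases. Their differences ran from 1.59-fold for Cyp2d10 to 6.76-fold for Cyp2c54. The calls of Cyp2c54, Cyp2d10, Cyp2d22 and Cyp4f13 were lost in many of the other settings, given below. Cyp2b9 had met the rule only through the heterozygous arrays. The 9 members are 20.9% of the 43, and 2.94% of all genes tested were called lower in this comparison (limma on all 15 arrays, Benjamini-Hochberg adjusted p under 0.05), while 0 members and 3.94% of all genes were called higher. At an unadjusted p under 0.05, 18 members were lower and 3 were higher, against 10.7% and 11.6% of all genes. Of the 43 log2 changes, 30 were negative (69.8%, against 52% of all genes), and their median was -0.52 against -0.021 over all genes. In this comparison 14 members were at least 2-fold lower and 2 at least 2-fold higher. The share of all genes at that size is not given here, so these counts have no background. In 12 members (27.9%) every tumour lay below every heterozygous liver, against 6.13% of all genes, and no member had every tumour above every heterozygous liver, against 5.3% of all genes. These 12 were Cyp1a2, Cyp2b9, Cyp2c23, Cyp2c50, Cyp2d9, Cyp2d10, Cyp2d13, Cyp2d22, Cyp2e1, Cyp4f14, Cyp4f15 and Cyp4v3. With only tumours and heterozygous livers in the fit, 2 members were called lower, Cyp2b9 and Cyp4f15 (adjusted p = 0.0343 for each), and 0 were called higher, against 0.346% and 0.882% of all genes. In that fit 15 members were lower and 1 higher at an unadjusted p under 0.05, against 7.82% and 8.4% of all genes. With the actin ratio as a covariate no member was called in any comparison and the median change of the members against heterozygous livers was -0.29 in tumours and 0.096 in non-tumorous knockout livers. The ratio follows the groups, so in this fit RNA integrity and group cannot be told apart.

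Non-tumorous knockout livers were compared with heterozygous livers to ask what differs in knockout liver tissue outside the tumours. In the fit of all 15 arrays 1 member was called, Cyp2b9, which was lower in the knockout livers, and 0 were called higher. This is 2.33% of the members, against 0.315% of all genes called lower and 1.36% called higher. Cyp2b9 was a member only through its heterozygous arrays, so this share is not independent of the rule. In the same fit, at an unadjusted p under 0.05, 7 members were lower and 3 higher, against 6.75% and 8.91% of all genes. Of the 43 changes 28 were negative (65.1%, against 52.3% of all genes), with a median of -0.23 against -0.019 over all genes. This median turned to 0.096 with the actin ratio as a covariate, where all genes had -0.046. The estimates of Cyp1a2, Cyp2c29, Cyp2e1 and Cyp4a14 also turned positive, at 0.079 to 0.44. In 14 members (32.6%) every knockout liver lay below every heterozygous liver, against 6.78% of all genes, and in 2 members (4.65%) every knockout liver lay above, against 8.01% of all genes. With the tumours left out of the fit, 13 members (30.2%) were called lower and 2 (4.65%) higher, against 3.66% and 6.77% of all genes. The 13 were Cyp1a2, Cyp2b9, Cyp2b10, Cyp2c29, Cyp2c50, Cyp2c54, Cyp2d13, Cyp2d26, Cyp2e1, Cyp3a25, Cyp4a14, Cyp4f15 and Cyp4v3, and the 2 higher members were Cyp2a12 and Cyp2d12. The fit of all 15 arrays gives the 3 groups 1 estimate of the spread, and the tumours spread most. Without heterozygous liver 2, 0 members were called in the fit of the remaining arrays, and without tumour 5-1 there were 3, Cyp2b9, Cyp2c29 and Cyp3a25.

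Tumours were compared with non-tumorous knockout livers to ask what changes between the tumour and the surrounding tissue of knockout mice. No member was called in either direction, against 0.021% of all genes called higher and 0.115% called lower. At an unadjusted p under 0.05, 12 members were lower and 2 higher, against 6.02% and 4.31% of all genes, and the smallest adjusted p of a member was 0.145. The changes leaned towards lower tumour signals, with 29 of 43 negative (67.4%, against 48.8% of all genes) and a median of -0.16 against 0.0083 over all genes. There were 5 members with at least a 2-fold lower estimate and 1 with at least a 2-fold higher one, again without a share of all genes. No member had groups that did not overlap, against 0.126% of all genes with every tumour above and 0.567% with every tumour below. With these groups alone in the fit 0 members and 0% of all genes were called in each direction. Of the members, 11 were lower and 0 higher at an unadjusted p under 0.05, against 5.27% and 3.96% of all genes. Leaving out tumour 6-1 brought 2 calls of lower signal, Cyp2d13 (log2 change -1.66, adjusted p = 0.0209) and Cyp4f14 (-1.10, adjusted p = 0.0147). Leaving out tumour 5-1 brought 1 call of higher signal, Cyp2c55 (3.02, adjusted p = 0.0393).

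**Figure D1:**
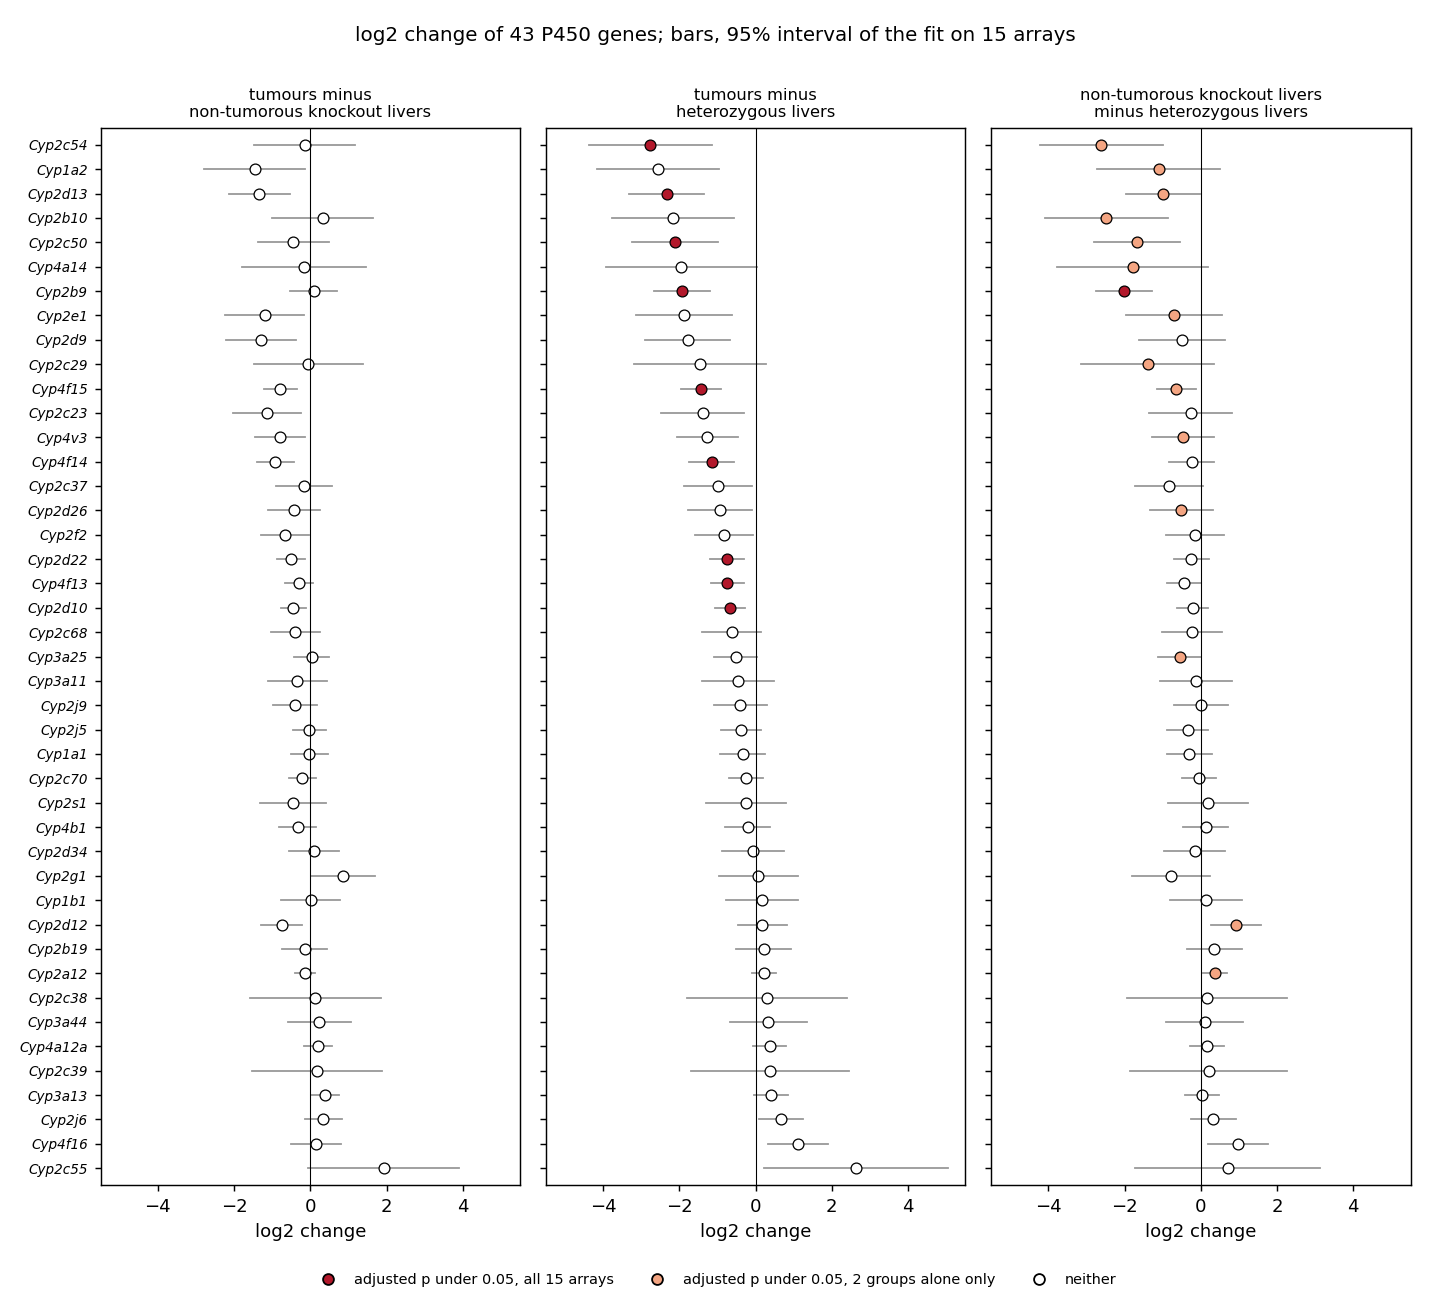
Log2 change of each of the 43 members in the comparisons of tumours with non-tumorous knockout livers, tumours with heterozygous livers and non-tumorous knockout livers with heterozygous livers, with the 95% interval as a line. Filled red points have an adjusted p under 0.05 in the fit of all 15 arrays, light points only in the fit of the compared groups alone, and white points in neither; 9 members are red in the comparison of tumours with heterozygous livers, 1 in that of non-tumorous knockout livers with heterozygous livers and 0 in the remaining one.

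Cyp1a2, a target of the aryl hydrocarbon receptor that oxidises caffeine and aromatic amines, had signals of 468, 4193, 74.6, 637, 2229 and 1520 in tumours 3, 4, 5-1, 5-2, 6-1 and 6-2. Its signals were 1915 to 2719.6 with a median of 2363 in non-tumorous knockout livers and 4600.3, 5069 and 5306 in heterozygous livers. All 12 knockout samples lay below all heterozygous livers, and the tumours spread to both sides of the non-tumorous knockout livers. The log2 change was -2.56 ± 0.77 SE in tumours against heterozygous livers (adjusted p = 0.0523) and -1.10 ± 0.77 SE in non-tumorous knockout livers against heterozygous livers (adjusted p = 0.527), which had an adjusted p of 4.26e-05 with only those groups in the fit. Against non-tumorous knockout livers the tumours had a log2 change of -1.46 ± 0.63 SE (adjusted p = 0.435), the lowest estimate among the members. Cyp1b1, known mainly from tissues other than hepatocytes, was dim, at 15 to 51.8 with a median of 32.7 in tumours, 4 to 74.7 with a median of 31.9 in non-tumorous knockout livers and 40.8, 16.8 and 22.7 in heterozygous livers, with overlap among all groups. Of the 3 tested P450 targets of the aryl hydrocarbon receptor (Cyp1a1, Cyp1a2 and Cyp1b1), 0 were called in any comparison in the fit of all 15 arrays.

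Cyp2b10, the classical phenobarbital-inducible gene of mouse liver and a target of CAR, had signals of 699, 330.4, 16.3, 41.8, 63.6 and 29.3 in tumours 3, 4, 5-1, 5-2, 6-1 and 6-2, against 40.4 to 152 with a median of 65.5 in non-tumorous knockout livers and 339, 433 and 519 in heterozygous livers. Tumour 3 was above every heterozygous liver, while the other 5 tumours were below all of them, tumour 4 by a narrow margin. The log2 change of tumours against heterozygous livers was -2.16 ± 0.76 SE (adjusted p = 0.101). Every non-tumorous knockout liver was below every heterozygous liver, with a log2 change of -2.48 ± 0.77 SE (adjusted p = 0.111, and 4.94e-05 with only those groups in the fit). All 3 probe sets of Cyp2b10 had tumour changes between -2.29 and -2.16 against heterozygous livers.

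Cyp2b9, a relative of Cyp2b10 that is higher in female than in male mouse liver, was the only member called in both comparisons with heterozygous livers. It met the rule only through the heterozygous arrays, so both calls are of a member kept through the group where it was high. It had signals of 6.9 to 37 with a median of 14.4 in tumours and 8.4 to 21.7 with a median of 15.4 in non-tumorous knockout livers, against 70.1, 145 and 62.9 in heterozygous livers. Every knockout sample was below every heterozygous liver. In tumours it fell by 1.93 on the log2 scale against heterozygous livers (SE 0.35, adjusted p = 0.00339). Only 1 tumour array had Cyp2b9 above the 40th percentile, so this change has no exact size. In non-tumorous knockout livers its log2 change was -2.02 ± 0.35 SE (adjusted p = 0.00737), and since no array of that group was above its 40th percentile, the gene was at least 3.05-fold lower, with mean signals of 14.95 in non-tumorous knockout livers and 92.6 in heterozygous livers. This bound sets the lowest signal counted as above background, the 40th percentile of each array, against the heterozygous mean. The labels do not give the sex of the mice, and Xist had signals of 13.4 to 52.3 and the Y-linked gene Eif2s3y of 51.4 to 143 over all 15 arrays. Cyp2b10 had estimates of -2.16 in tumours and -2.48 in non-tumorous knockout livers, and was uncalled with larger SE (0.76 and 0.77). The constant added before log2 understates changes of dim genes. With no constant Cyp2b9 had -2.50 in tumours and -2.59 in non-tumorous knockout livers, so the sizes of the pair cannot be ranked. The promoters of the Cyp2b pair are shown because these relatives can be compared base by base, not to account for the calls. They are the 250 bases before the RefSeq transcript start in build GRCm38.p6, Cyp2b9 at chr7:26173159-26173408 and Cyp2b10 at chr7:25897408-25897657, both on the plus strand, written 5′ to 3′ with AGGTCA, the core recognised by many nuclear receptors, and TATAAA in capitals where found on either strand.
Cyp2b9: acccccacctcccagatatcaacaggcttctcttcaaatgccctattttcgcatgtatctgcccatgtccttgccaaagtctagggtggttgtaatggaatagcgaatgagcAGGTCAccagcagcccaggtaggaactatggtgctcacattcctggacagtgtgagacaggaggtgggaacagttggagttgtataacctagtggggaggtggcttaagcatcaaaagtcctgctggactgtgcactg
Cyp2b10: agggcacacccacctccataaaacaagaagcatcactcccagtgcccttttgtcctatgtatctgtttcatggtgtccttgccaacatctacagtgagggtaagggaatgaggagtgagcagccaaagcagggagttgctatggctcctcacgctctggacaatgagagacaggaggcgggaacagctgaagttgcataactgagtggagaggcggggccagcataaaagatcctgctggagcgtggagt
An aligned comparison found 74.4% identical bases between the pair. AGGTCA was found in the Cyp2b9 stretch from 138 bases before the start and not in the Cyp2b10 stretch, which held GCGTG, the core bound by the aryl hydrocarbon receptor, on each strand. Whether these motifs bear on expression was not tested.

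**Figure D2:**
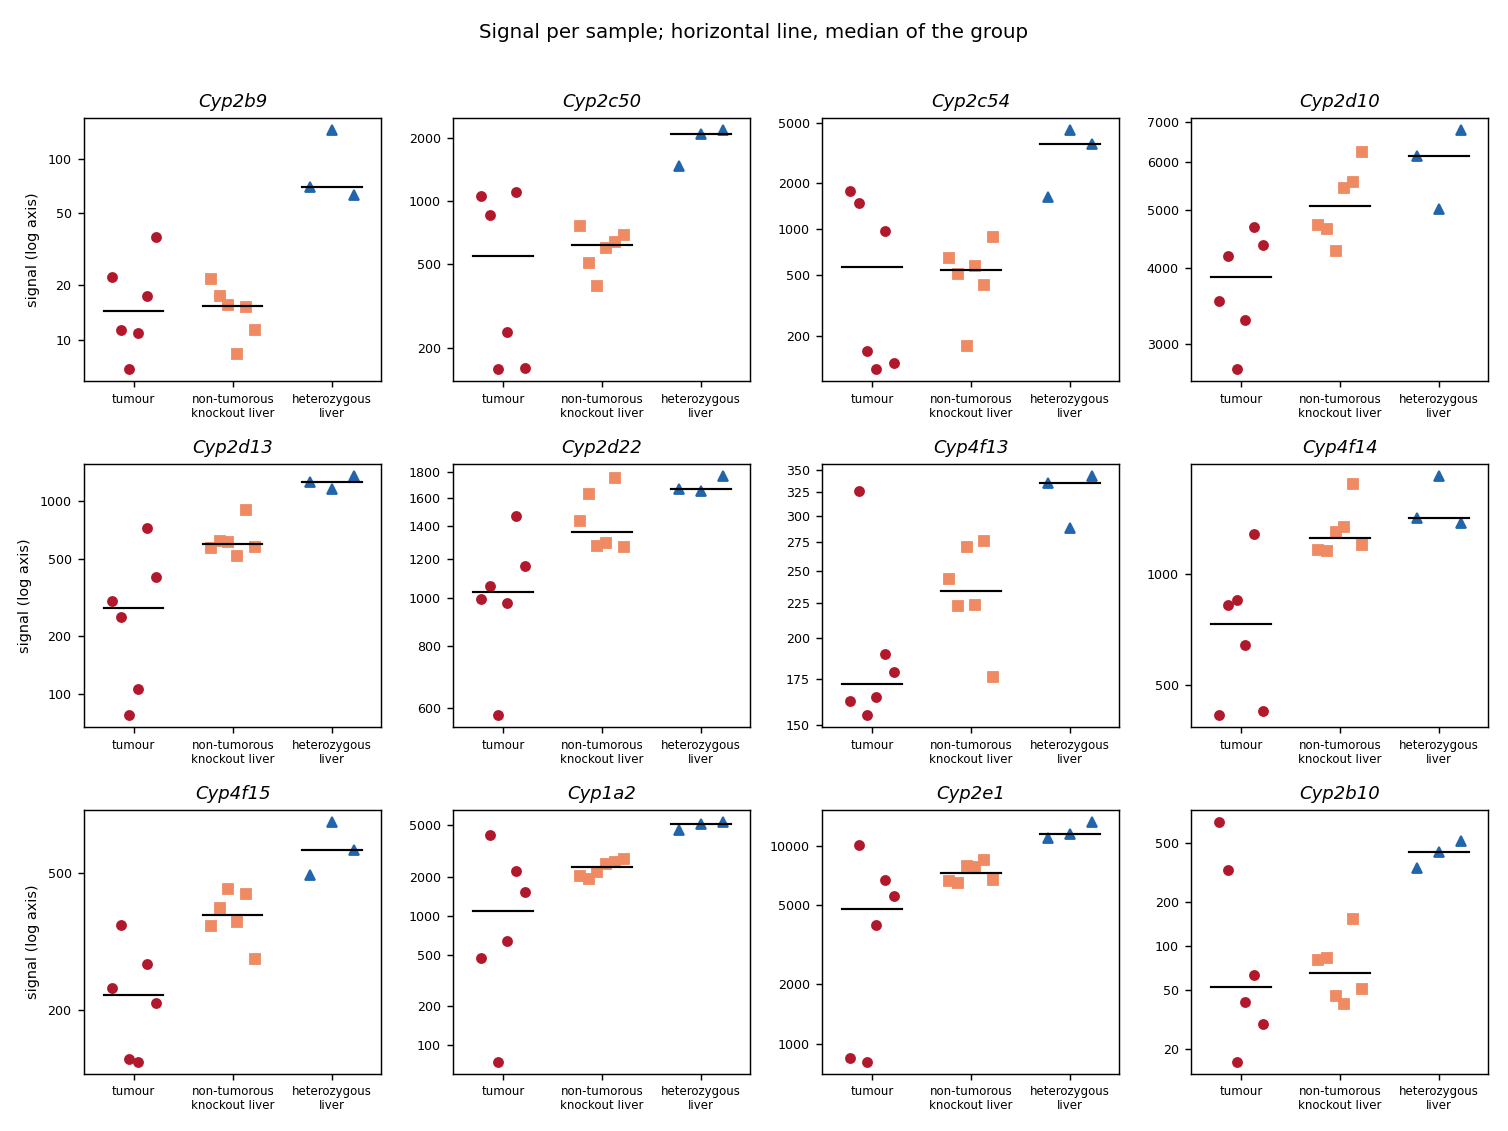
Signal of each sample on a log axis for the 9 members called in tumours against heterozygous livers and for Cyp1a2, Cyp2e1 and Cyp2b10, with tumours at the left, non-tumorous knockout livers in the middle and heterozygous livers at the right, and a line at each group's median. For Cyp2b9 the tumours (6.9 to 37) and non-tumorous knockout livers (8.4 to 21.7) all lie below the heterozygous livers (62.9 to 145), while for Cyp2b10 tumour 3 (699) lies above them.

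The Cyp2c subfamily, whose members epoxidise arachidonic acid and hydroxylate drugs and retinoids, held both the most negative and the most positive log2 changes of tumours against heterozygous livers among the members. Of its 10 members, 2 were called lower in tumours than in heterozygous livers and 0 higher, with log2 changes from -2.76 for Cyp2c54 to 2.63 for Cyp2c55 and a median of -0.81. Cyp2c50 had signals of 158 to 1107 with a median of 549 in tumours, 392 to 759.5 with a median of 619.7 in non-tumorous knockout livers and 1472, 2084 and 2196 in heterozygous livers. Both knockout groups lay wholly below the heterozygous livers, with a log2 change of -2.12 ± 0.53 SE in tumours (adjusted p = 0.0236) and -1.68 ± 0.53 SE in non-tumorous livers (adjusted p = 0.124, and 2.27e-05 without the tumours in the fit). Cyp2c54 had signals of 1780.3, 1476, 159, 121, 972 and 132 in tumours 3, 4, 5-1, 5-2, 6-1 and 6-2, 172 to 892 with a median of 539 in non-tumorous knockout livers and 1638, 4497 and 3642 in heterozygous livers. Tumour 3 exceeded the lowest heterozygous liver, while tumours 5-1, 5-2 and 6-2 were the 3 lowest of all 15 arrays. The log2 change of Cyp2c54 was -2.76 ± 0.77 SE in tumours (adjusted p = 0.0385) and -2.61 ± 0.77 SE in non-tumorous knockout livers (adjusted p = 0.0964, and 0.000322 without the tumours in the fit). Cyp2c70, which makes muricholic acids, the hydrophilic bile acids of mice, had signals of 4469 to 7697 with a median of 6055 in tumours, 5722 to 9521 with a median of 6555 in non-tumorous knockout livers and 8141, 6936 and 6386 in heterozygous livers. Its groups overlapped, with a log2 change of -0.25 ± 0.21 SE in tumours against heterozygous livers (adjusted p = 0.524).

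Cyp2c55, a member inducible through CAR and PXR, had the largest positive estimate and was not called. Its signals were 1247, 3098, 1.2, 1795, 297 and 338 in tumours 3, 4, 5-1, 5-2, 6-1 and 6-2, against 103, 113, 65.3, 88.7, 73.2 and 297 in non-tumorous knockout livers 1 to 6 and 74.3, 46.5 and 68.6 in heterozygous livers. In 5 of 6 tumours it was above every heterozygous liver, and in tumour 5-1 it was the lowest of all 15 arrays. The log2 change of tumours was 2.63 ± 1.15 SE against heterozygous livers (adjusted p = 0.184) and 1.92 ± 0.95 SE against non-tumorous knockout livers (adjusted p = 0.504). Without tumour 5-1 both were called, at 3.73 (adjusted p = 0.00185) and 3.02 (adjusted p = 0.0393). Within mice, the log2 difference from the own liver was 4.08, 4.99, -3.00, 4.45, -0.0024 and 0.18 in tumours 3, 4, 5-1, 5-2, 6-1 and 6-2. Thus 3 tumours were well above their liver, 1 was well below it and the tumours of mouse 6 were near it.

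Cyp2c29, Cyp2c38 and Cyp2c39 shared their highest and their lowest tumours. Cyp2c38 had signals of 1643, 3557, 29.1, 159, 1334 and 1488 in tumours 3, 4, 5-1, 5-2, 6-1 and 6-2, 316 to 1483 with a median of 573 in non-tumorous knockout livers and 366, 663 and 561 in heterozygous livers. Cyp2c39, which hydroxylates retinoic acid, had 2129, 4163, 42.4, 319, 2021 and 2345 in the same tumours, 363 to 2525 with a median of 760.0 in non-tumorous knockout livers and 551, 811 and 813 in heterozygous livers. Cyp2c29, a phenobarbital-inducible gene, had 7439.8, 9578, 171, 3631, 6457 and 5519 in those tumours, 2622 to 5555 in non-tumorous knockout livers and 7865, 10946 and 9519 in heterozygous livers. For each of the 3 genes tumour 4 was the highest tumour, tumour 5-1 the lowest and tumour 5-2 the next lowest, and knockout liver 6 was the highest of its group. The tumour log2 changes against heterozygous livers were 0.30 ± 1.00 SE for Cyp2c38, 0.38 ± 0.98 SE for Cyp2c39 and -1.45 ± 0.82 SE for Cyp2c29 (adjusted p = 0.902, 0.862 and 0.318). Of these 3 genes Cyp2c29 alone separated non-tumorous knockout from heterozygous livers, at -1.39 ± 0.83 SE (adjusted p = 0.446, and 0.000203 without the tumours in the fit). Their promoters are shown because the 3 genes lie close together on chromosome 19, are alike in sequence and shared their extreme tumours. The stretches are, in GRCm38.p6, chr19:39286835-39287084 on the plus strand for Cyp2c29, chr19:39463076-39463325 on the minus strand for Cyp2c38 and chr19:39347096-39347345 on the plus strand for Cyp2c39, from RefSeq, with TATAAA and AGGTCA on either strand in capitals.
Cyp2c29: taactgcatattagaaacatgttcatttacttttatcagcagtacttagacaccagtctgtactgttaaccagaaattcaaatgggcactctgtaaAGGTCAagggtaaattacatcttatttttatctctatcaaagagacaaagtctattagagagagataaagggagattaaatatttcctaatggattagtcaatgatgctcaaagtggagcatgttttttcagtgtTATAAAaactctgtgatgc
Cyp2c38: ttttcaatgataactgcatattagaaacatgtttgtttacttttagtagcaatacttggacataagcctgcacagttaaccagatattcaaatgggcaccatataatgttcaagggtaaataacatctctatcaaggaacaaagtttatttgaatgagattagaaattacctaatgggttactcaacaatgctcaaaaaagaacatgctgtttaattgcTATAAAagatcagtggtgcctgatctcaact
Cyp2c39: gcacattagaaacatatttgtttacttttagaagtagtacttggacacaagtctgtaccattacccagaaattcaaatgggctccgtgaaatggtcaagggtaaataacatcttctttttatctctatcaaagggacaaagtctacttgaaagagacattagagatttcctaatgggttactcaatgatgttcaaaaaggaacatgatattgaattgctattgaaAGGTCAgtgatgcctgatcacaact
Identity was 80.4% between Cyp2c38 and Cyp2c39, 78% between Cyp2c29 and Cyp2c39 and 74.8% between Cyp2c29 and Cyp2c38. Probes of such close relatives may read more than 1 transcript, and whether they did was not tested.

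**Figure D3:**
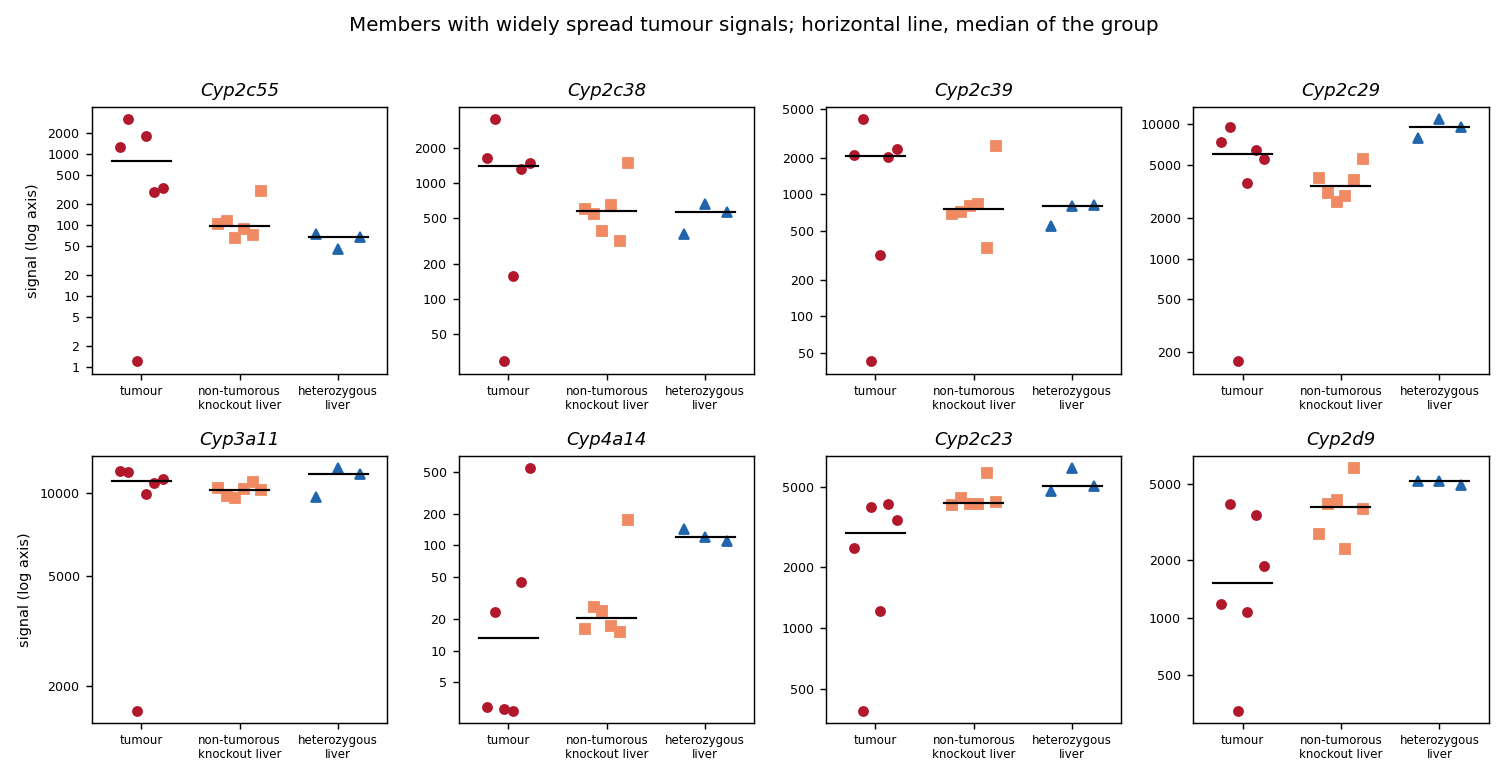
Signal of each sample on a log axis for Cyp2c55, Cyp2c38, Cyp2c39, Cyp2c29, Cyp3a11, Cyp4a14, Cyp2c23 and Cyp2d9, with tumours, non-tumorous knockout livers and heterozygous livers from left to right and a line at the median. Tumour 5-1 is the lowest tumour for Cyp2c55 (1.2), Cyp2c38 (29.1), Cyp2c39 (42.4), Cyp2c29 (171), Cyp3a11 (1624) and Cyp2d9 (327), while tumour 4 is the lowest for Cyp2c23 (391).

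Of the 7 Cyp2d members, 3 were called lower in tumours than in heterozygous livers and 6 had negative estimates, with a median of -0.75. Cyp2d13 had signals of 77.3 to 727 with a median of 278 in tumours, 522 to 903 with a median of 597 in non-tumorous knockout livers and 1260.1, 1155 and 1357 in heterozygous livers. All knockout samples were below all heterozygous livers, and tumour 6-1 was the single tumour within the range of the non-tumorous knockout livers. The log2 change was -2.33 ± 0.46 SE in tumours (adjusted p = 0.00620) and -0.99 ± 0.46 SE in non-tumorous knockout livers (adjusted p = 0.308, and 0.00048 without the tumours in the fit), both against heterozygous livers. A second probe set of Cyp2d13 gave -1.77 (adjusted p = 0.00177) in tumours and -1.19 (adjusted p = 0.0454) in non-tumorous knockout livers when each probe set was tested on its own. Cyp2d22, the mouse gene often set beside human CYP2D6, had signals of 579.8 to 1472 with a median of 1030.1 in tumours, 1271 to 1753 with a median of 1364 in non-tumorous knockout livers and 1668, 1652 and 1772 in heterozygous livers. Every tumour was below every heterozygous liver, with a log2 change of -0.75 ± 0.21 SE (adjusted p = 0.0429) and of -0.84 at its second probe set (adjusted p = 0.0286).

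Cyp2d10, the brightest Cyp2d member, had signals of 2720.2 to 4683 with a median of 3868 in tumours, 4280 to 6238 with a median of 5078 in non-tumorous knockout livers and 6141, 5013 and 6795 in heterozygous livers. It had a log2 change of -0.66 ± 0.19 SE in tumours against heterozygous livers (adjusted p = 0.0403). Cyp2d9, a testosterone hydroxylase higher in male mouse liver, had signals of 1185, 3924, 327, 1073, 3432 and 1853 in tumours 3, 4, 5-1, 5-2, 6-1 and 6-2, 2284 to 6051 with a median of 3798 in non-tumorous knockout livers and 5201, 5197 and 4925 in heterozygous livers. Every tumour was below every heterozygous liver, and the log2 change of -1.78 ± 0.53 SE had an adjusted p of 0.0524. Cyp2d12 lay higher in non-tumorous knockout livers, at 55.8 to 107 against 32.9 to 45 in heterozygous livers, with no overlap (log2 change 0.93 ± 0.31 SE, adjusted p = 0.144, and 0.0128 without the tumours in the fit). The promoters of Cyp2d9 and Cyp2d10, the closest pair shown, lie at chr15:82452127-82452376 on the plus strand and chr15:82407195-82407444 on the minus strand of GRCm38.p6, from RefSeq with the same marks, and were 84.8% identical, while tumour signals ran from 327 to 3924 for Cyp2d9 and from 2720.2 to 4683 for Cyp2d10.
Cyp2d9: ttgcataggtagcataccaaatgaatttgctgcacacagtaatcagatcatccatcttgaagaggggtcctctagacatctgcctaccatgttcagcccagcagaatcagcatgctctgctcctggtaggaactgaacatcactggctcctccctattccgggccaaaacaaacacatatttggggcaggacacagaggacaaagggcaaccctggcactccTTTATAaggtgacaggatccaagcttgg
Cyp2d10: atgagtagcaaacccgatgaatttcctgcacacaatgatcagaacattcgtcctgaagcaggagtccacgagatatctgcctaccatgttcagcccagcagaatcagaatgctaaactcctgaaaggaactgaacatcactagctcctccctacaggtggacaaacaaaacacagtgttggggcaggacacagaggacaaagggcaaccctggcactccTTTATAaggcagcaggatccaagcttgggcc
The capitals there are TTTATA, which is TATAAA on the opposite strand.

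Promoters were found for 34 of the 43 members in the RefSeq table. TATAAA on either strand was in 14 of them (41.2%), against 12.4% of all 32851 promoters of the same length, and AGGTCA in 10 (29.4%), against 14%. GTTAAT, a core of the HNF1 motif, was in 2 (5.88%, against 6.43%) and GCGTG in 8 (23.5%, against 28.2%). These counts describe letters in the 250 bases before the start and were not tested. Members gave 1 promoter a gene, while every promoter of the table counted among all. Relatives are alike, with 86% identity between Cyp2c37 and Cyp2c50, so their motifs are not separate counts. TATAAA lay 128, 234 and 122 bases before the start in Cyp2j5, Cyp3a11 and Cyp3a44, and 19 to 39 bases before it in the others.

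Cyp2e1, which oxidises ethanol and paracetamol around the central vein, had signals of 846, 10010.3, 812, 3974, 6728 and 5567 in tumours 3, 4, 5-1, 5-2, 6-1 and 6-2, 6473 to 8498 with a median of 7232 in non-tumorous knockout livers and 10912, 11413 and 13154 in heterozygous livers. Every knockout sample lay below every heterozygous liver, with log2 changes of -1.88 ± 0.60 SE in tumours (adjusted p = 0.0678) and -0.69 ± 0.60 SE in non-tumorous knockout livers (adjusted p = 0.621, and 0.00168 without the tumours in the fit). Tumour 4 was near the heterozygous livers, and tumours 3 and 5-1 were the lowest of all 15 arrays. Cyp2f2, which activates naphthalene and lies around the portal vein, had signals of 12902, 4221, 4474, 2442, 9531 and 8055 in the same tumours, 8061 to 12095 with a median of 9271 in non-tumorous knockout livers and 11088, 10299.8 and 10319 in heterozygous livers. Tumour 3 was thus the highest sample for Cyp2f2 and next to the lowest for Cyp2e1, and tumour 4 was the highest tumour for Cyp2e1 and the next to lowest for Cyp2f2. Cyp2f2 had a log2 change of -0.82 ± 0.36 SE in tumours against heterozygous livers (adjusted p = 0.189). Of 7 tested pericentral P450 genes, 2 were called lower in tumours than in heterozygous livers, Cyp2c50 and Cyp2c54, with a median log2 change of -1.88 over the 7. In the other comparisons of the same fit, of all 15 arrays, 0 were called. With only the compared groups in the fit, 0 of the 7 were called in tumours and 5 were called lower in non-tumorous knockout livers than in heterozygous livers, Cyp1a2, Cyp2c29, Cyp2c50, Cyp2c54 and Cyp2e1.

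Cyp2a12, a hydroxylase of steroids and bile acids, had signals of 2632 to 4015 with a median of 3131 in tumours, 3141 to 3808 with a median of 3554 in non-tumorous knockout livers and 2894, 2427 and 2835 in heterozygous livers. Every non-tumorous knockout liver was above every heterozygous liver, at a log2 change of 0.37 ± 0.15 SE (adjusted p = 0.237, and 0.0399 without the tumours in the fit). Cyp2j5, an epoxygenase of arachidonic acid, had 834 to 2018 with a median of 1639 in tumours, 1252 to 1603 with a median of 1426 in non-tumorous knockout livers and 1656, 1733 and 2084 in heterozygous livers. Its log2 change in tumours against heterozygous livers was -0.38 ± 0.25 SE (adjusted p = 0.398), and its second, dimmer probe set gave -0.66 (adjusted p = 0.0420), so both probe sets disagreed on the call.

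Cyp3a11, the main drug-metabolising Cyp3a enzyme of mouse liver and a PXR target, was close to even over most samples. Its signals were 11970.1, 11908, 1624, 9904, 10802 and 11235 in tumours 3, 4, 5-1, 5-2, 6-1 and 6-2, 9559 to 10968 with a median of 10255 in non-tumorous knockout livers and 9623, 12263 and 11693 in heterozygous livers. Tumour 5-1 was far below the next lowest sample, non-tumorous knockout liver 3, and the other tumours overlapped both liver groups. The log2 change of tumours against heterozygous livers was -0.46 ± 0.45 SE with a 95% interval of -1.40 to 0.47 (adjusted p = 0.589). Of the 4 Cyp3a members 0 were called in the fit of all 15 arrays, and Cyp3a25 separated the liver groups, at 2782 to 3396 in non-tumorous knockout livers against 3859 to 4788 in heterozygous livers (log2 change -0.55 ± 0.27 SE, adjusted p = 0.333, and 0.00442 without the tumours in the fit). Cyp3a13 was the 1 member higher in all 6 tumours than in the liver of the same mouse, at 188 to 363 in tumours against 148 to 249 in non-tumorous knockout livers (log2 change 0.39 ± 0.18 SE, adjusted p = 0.456). Of 6 tested members known as targets or subfamily relatives of targets of CAR and PXR, 1, Cyp2b9, was called lower in each comparison with heterozygous livers in the fit of all 15 arrays and 0 were called higher. Without the tumours in the fit 3 of the 6, Cyp2b9, Cyp2b10 and Cyp2c29, were lower in non-tumorous knockout livers.

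The Cyp4a members, fatty acid hydroxylases and classical targets of PPAR alpha, were not called in the fit of all 15 arrays. Cyp4a12a, which is higher in male mouse liver, had signals of 2377 to 3496 with a median of 2771 in tumours, 1882 to 3158 with a median of 2436 in non-tumorous knockout livers and 1557, 2799.8 and 2387 in heterozygous livers. Its groups overlapped, with a log2 change of 0.37 ± 0.21 SE in tumours against heterozygous livers (adjusted p = 0.303). Cyp4a14 had 2.9, 23.5, 2.8, 2.7, 45.2 and 540.4 in tumours 3, 4, 5-1, 5-2, 6-1 and 6-2, 16.1, 25.7, 23.9, 17.2, 15 and 172 in non-tumorous knockout livers 1 to 6 and 144, 119.6 and 111 in heterozygous livers. In mouse 6 both the non-tumorous liver and tumour 6-2 were above every heterozygous liver, and all other knockout samples were below all of them. The log2 change of Cyp4a14 was -1.94 ± 0.94 SE in tumours (adjusted p = 0.232) and -1.78 ± 0.94 SE in non-tumorous knockout livers (adjusted p = 0.387, and 0.0250 without the tumours in the fit) against heterozygous livers. A probe set shared by Cyp4a10 and Cyp4a31 had the same samples on top, with 1701 in tumour 6-2 and 752 in non-tumorous liver 6, against 24.9 to 276 in the other tumours, 41.6 to 121 in the other non-tumorous knockout livers and 433, 704 and 316 in heterozygous livers.

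Of the 4 Cyp4f members 3 were called lower in tumours than in heterozygous livers. Cyp4f15 had signals of 141 to 353 with a median of 221 in tumours, 282 to 450.3 with a median of 379 in non-tumorous knockout livers and 496, 706 and 586 in heterozygous livers. All knockout samples were below all heterozygous livers, with log2 changes of -1.43 ± 0.25 SE in tumours (adjusted p = 0.00240, the smallest of the members) and -0.64 ± 0.25 SE in non-tumorous knockout livers (adjusted p = 0.209, and 0.0149 without the tumours in the fit). Cyp4f14, which hydroxylates leukotrienes, had 412 to 1284 with a median of 732 in tumours, 1156 to 1753 with a median of 1251 in non-tumorous knockout livers and 1419.9, 1849 and 1372 in heterozygous livers. Its tumours did not overlap the heterozygous livers, with a log2 change of -1.15 ± 0.28 SE (adjusted p = 0.0187), and 1 tumour, 6-1, lay within the range of the non-tumorous knockout livers. Cyp4f13 had 155 to 327 with a median of 172 in tumours, 176 to 276 with a median of 234 in non-tumorous knockout livers and 335, 288 and 343 in heterozygous livers. Tumour 4 overlapped the heterozygous livers for this gene and the other 5 tumours were below them, at a log2 change of -0.74 ± 0.21 SE (adjusted p = 0.0423). Cyp4f16 was dim and had a positive estimate of 1.12 ± 0.38 SE in tumours (adjusted p = 0.0819). A probe set shared by Cyp4f16 and Cyp4f37 was called higher in tumours (log2 change 1.68, adjusted p = 0.00459) and in non-tumorous knockout livers (1.83, adjusted p = 0.00639) than in heterozygous livers. That probe set had signals of 42.5 to 80.3 in tumours, 46.7 to 108 in non-tumorous knockout livers and 30.1, 2.6 and 16.5 in heterozygous livers. Heterozygous livers 2 and 3 were below the 40th percentile of their arrays (29.2 and 29.7), so these changes have no exact size.

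Cyp4v3, a fatty acid hydroxylase, had signals of 1403, 2225, 483, 2556, 2515 and 2426 in tumours 3, 4, 5-1, 5-2, 6-1 and 6-2, 2464 to 4165 with a median of 2763 in non-tumorous knockout livers and 4248, 3822 and 4219.9 in heterozygous livers. Every tumour was below every heterozygous liver, at a log2 change of -1.27 ± 0.38 SE (adjusted p = 0.0539). Cyp4b1, known mainly from lung, was at 41.3 to 127 with a median of 91.3 in tumours, 72 to 119.8 with a median of 106 in non-tumorous knockout livers and 97.3, 100.4 and 79 in heterozygous livers. Its groups overlapped too, with a log2 change of -0.20 ± 0.28 SE in tumours against heterozygous livers (adjusted p = 0.728).

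Relatives share probes in this set of genes. There were 4 kept probe sets that the annotation ties to a pair of P450 genes, and they were kept apart from the members. The pair Cyp2a5 and Cyp2a4 had signals of 12531, 13288, 1393, 1684, 7866 and 6269 in tumours 3, 4, 5-1, 5-2, 6-1 and 6-2, 4441 to 11069 in non-tumorous knockout livers and 6539, 6941 and 7728 in heterozygous livers. The pair Cyp3a41a and Cyp3a41b had 3.7 in tumour 5-1 and at most 145 in the other tumours, 81.2 to 309 in non-tumorous knockout livers and 66.1, 81.8 and 96.2 in heterozygous livers. Neither pair was called in a comparison. Tumour 5-1 was the lowest sample for both pairs. The members themselves had 4 kept probe sets of the s_at type, which may read more than 1 transcript. They include those that stood for Cyp2b10, Cyp2c23 and Cyp4v3, and whether they read relatives was not tested.

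Tumours differed from each other more than the livers did. The median SD of a member over the 6 tumours was 0.63 on the log2 scale, against 0.29 in non-tumorous knockout livers and 0.22 in heterozygous livers, while over all genes it was 0.43, 0.29 and 0.25. In tumours 15 members (34.9%) had an SD over 1, against 5.66% of all genes, and in non-tumorous knockout livers 1 member (2.33%) did, against 0.441% of all genes. The SD was larger in tumours than in non-tumorous knockout livers for 38 of the 43 members, against 73.3% of all genes. Tumour 5-1 stood lowest, with 27 of its 43 members at least 2-fold below the mean of the heterozygous livers and 1 at least 2-fold above it, against 9.11% and 13.3% of all genes in that tumour. In tumours 3, 4, 5-2, 6-1 and 6-2 12, 8, 19, 7 and 10 members were 2-fold below, against 9.31%, 9.61%, 6.4%, 2.94% and 5.8% of all genes. In these tumours 5, 4, 3, 5 and 5 members were 2-fold above, against 7.9%, 6.62%, 9.49%, 4.81% and 7.47% of all genes. In non-tumorous knockout livers 1 to 6 the members 2-fold below were 9, 9, 10, 9, 8 and 6, against 3.96% to 5.24% of all genes. Those 2-fold above were 2, 2, 3, 1, 0 and 4, against 3.68% to 7.93% of all genes. Single heterozygous livers had 1, 0 and 0 members 2-fold below the mean that they form and 0 above it.

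**Figure D4:**
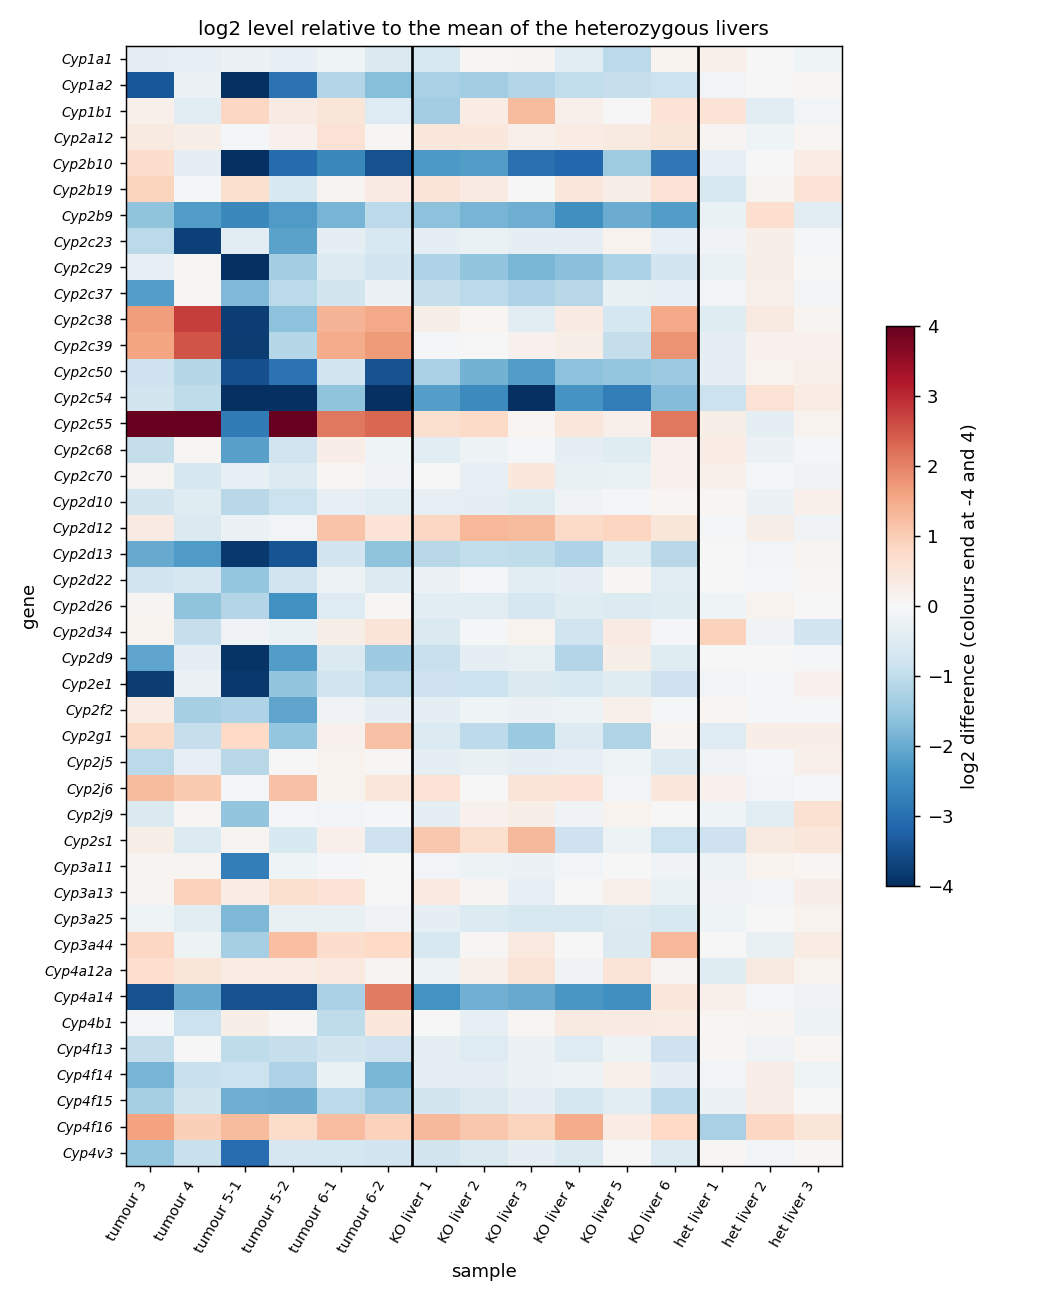
Log2 signal of the 43 members in each of the 15 samples relative to the mean of the heterozygous livers, with tumours, non-tumorous knockout livers and heterozygous livers from left to right; blue is lower, red is higher and the colours end at 4 in either direction. Tumour 5-1 has 27 members at least 2-fold below that mean, and the non-tumorous knockout livers have 6 to 10.

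Each tumour was set against the non-tumorous liver of its own mouse. Tumour 5-1 had 24 of 43 members at least 2-fold lower and 1 higher than liver 5, against 8.33% and 13.2% of all genes, with Cyp1a2 lowest at -4.97 on the log2 scale. Tumour 5-2, from the same mouse, had 13 lower and 3 higher, against 5.44% and 8.67% of all genes, with Cyp2d13 lowest at -2.99. The members of tumours 5-1 and 5-2 had medians of -1.04 and -0.61, and all genes had medians of 0.11 and 0.032. Tumours 3 and 4 had members that moved widely in both directions, with 8 lower and 8 higher in tumour 3, against 10.9% and 8% of all genes. In tumour 4 there were 6 lower and 7 higher, against 8.71% and 5.29% of all genes. Cyp2e1 was lowest in tumour 3, at -3.21, and Cyp2c23, an epoxygenase, in tumour 4, at -3.38. Tumours 6-1 and 6-2 were closest to their liver. Tumour 6-1 had 2 members at least 2-fold lower and 1 higher, against 2.33% and 4.59% of all genes. Tumour 6-2 had 4 lower and 3 higher, against 4.76% and 6.65% of all genes. Across all 6 tumours 5 members were lower than in the own liver every time, Cyp2c23, Cyp2c70, Cyp2d10, Cyp4f15 and Cyp4v3, against 3.85% of all genes, and 1 member, Cyp3a13, was higher every time, which is 2.33% against 2.96% of all genes. Tumours of 1 mouse share their liver, so these are differences of 4 mice.

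**Figure D5:**
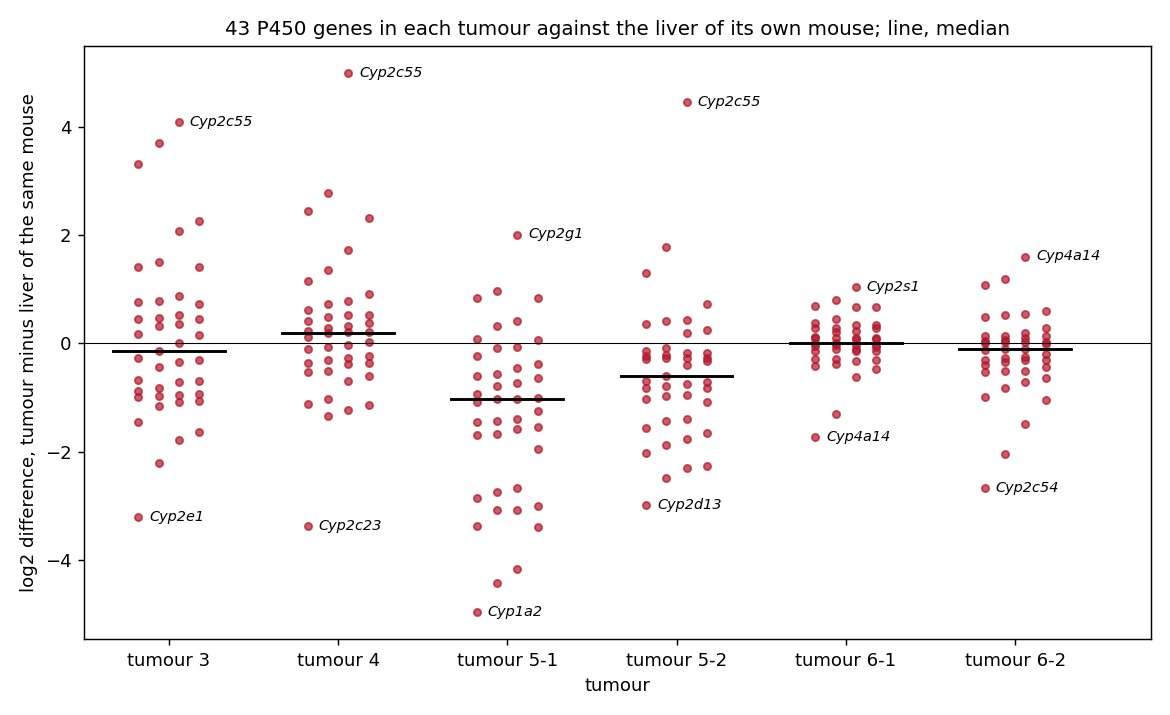
Log2 difference of each tumour from the non-tumorous liver of the same mouse, with 1 point for each of the 43 members and a line at their median. The median is -1.04 in tumour 5-1 and -0.61 in tumour 5-2, and lies between -0.14 and 0.18 in the other 4 tumours.

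Among other genes of the P450 system, 0 of 5 tested redox partners were called in any comparison in the fit of all 15 arrays, with a median tumour change of -0.38 against heterozygous livers. Cyb5a, cytochrome b5 and the brightest of them, had signals of 3090 to 5445 with a median of 5139.6 in tumours, 4999 to 5404 with a median of 5245 in non-tumorous knockout livers and 6837, 6440.2 and 6951 in heterozygous livers (log2 change -0.59 ± 0.18 SE in tumours, adjusted p = 0.0628). Without the tumours in the fit 2 of the 5 were called lower in non-tumorous knockout livers than in heterozygous livers, Cyb5a (log2 change -0.37 ± 0.10 SE, adjusted p = 0.0263) and its mitochondrial relative Cyb5b (-0.45 ± 0.13 SE, adjusted p = 0.0385). Of 11 tested genes of haem synthesis and breakdown, 0 were called in the fit of all 15 arrays. Alas1, the rate-limiting enzyme of haem synthesis in liver, had 508 to 4167 with a median of 3184 in tumours, 1432 to 3589.8 with a median of 2629 in non-tumorous knockout livers and 964, 1189 and 1410.2 in heterozygous livers (log2 change 0.96 ± 0.49 SE in tumours and 1.12 ± 0.49 SE in non-tumorous knockout livers, adjusted p = 0.256 and 0.271). Every non-tumorous knockout liver thus exceeded every heterozygous liver for Alas1, while tumour 5-1 was below all of them. Without the tumours in the fit Alas1 was called higher in non-tumorous knockout livers (adjusted p = 0.00349), and Cpox, a later enzyme of haem synthesis, was called lower (log2 change -0.81 ± 0.21 SE, adjusted p = 0.0187).

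Of 14 tested transcription factors that act on P450 genes, 2 were called lower in tumours than in heterozygous livers, and 0 were called in the other comparisons in the fit of all 15 arrays. With only the compared groups in the fit, 0 were called in tumours and 3 were lower in non-tumorous knockout than in heterozygous livers, Nr1i3 (adjusted p = 0.0242), Ppara (adjusted p = 0.0207) and Nr0b2 (adjusted p = 0.0370), which encodes a corepressor induced by bile acids. Cebpa, a factor of hepatocyte differentiation, had a log2 change of -0.65 ± 0.16 SE (adjusted p = 0.0220), at 1506 to 1853 in tumours against 2137 to 2776 in heterozygous livers. Rxra, the shared partner of CAR, PXR and PPAR alpha, had -0.67 ± 0.18 SE (adjusted p = 0.0360), at 392 to 665 in tumours against 736 to 820 in heterozygous livers. Nr1i3, which encodes CAR, had 232, 429.7, 53.4, 120, 249.7 and 311 in tumours 3, 4, 5-1, 5-2, 6-1 and 6-2, 172 to 391 with a median of 254 in non-tumorous knockout livers and 327, 607 and 461 in heterozygous livers. Its lowest sample was tumour 5-1, and its log2 change in tumours was -1.18 ± 0.44 SE (adjusted p = 0.117). Nr1i2, which encodes PXR, had 222, 256, 60.1, 87, 105 and 135 in the same tumours against 103, 90 and 116 in heterozygous livers (log2 change 0.29 ± 0.32 SE, adjusted p = 0.647). Ppara, which encodes PPAR alpha, had -0.79 ± 0.27 SE (adjusted p = 0.0935).

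Targets of the same receptors outside the P450 genes were mostly uncalled in the fit of all 15 arrays. Of 7 tested targets of CAR, PXR or PPAR alpha 1 was called, Gadd45b, a growth arrest and stress response gene. It was higher in tumours at 54.6 to 240 against 4.3 to 18.8 in heterozygous livers (log2 change 2.66 ± 0.51 SE, adjusted p = 0.00484), and no heterozygous array had it above the 40th percentile, so the change has no exact size. Of 3 tested targets of the aryl hydrocarbon receptor 0 were called, with a median tumour change of 0.57 against heterozygous livers. Of 12 tested P450 genes of other families 1 was called, Cyp7b1, an oxysterol hydroxylase of bile acid synthesis. It was lower in tumours at 303 to 2461 against 3476 to 3728 in heterozygous livers (log2 change -2.41 ± 0.56 SE, adjusted p = 0.0156). The median tumour change over those 12 genes was 0.066, against -0.52 over the 43 members. With only the compared groups in the fit Cyp7b1 was not called in tumours. With only non-tumorous knockout and heterozygous livers in the fit, 2 of the 7 targets of CAR, PXR or PPAR alpha, Ces2a and Ehhadh, were called lower in the knockout livers, and 1 of the 3 targets of the aryl hydrocarbon receptor, Nfe2l2, higher. Of the 12 other P450 genes, 3 were lower there, Cyp7b1, Cyp8b1 and Cyp46a1, and 2 were higher, Cyp51 and Ptgis.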

How the data were processed

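Total RNA of frozen mouse liver and liver tumour was hybridised, 1 sample an array, to Affymetrix arrays, named in the series text as the Mouse Genome 430 2.0 array, while the table used here holds 22690 probe sets. The authors' deposited values are intensity signals per probe set on a linear scale, made with MAS5 per the submitters' processing notes, with version and settings not given in the sources used here. Trimmed means, with 2% left out at each end, were 150.1 on all arrays. A constant of 9.1, the 20th percentile over the table, was added to each signal before log2, so folds of dim genes are understated. Probe sets above the 40th percentile of their array on at least 3 arrays were kept (16120), of which 14796 had 1 annotated gene, and the probe set with the highest mean stood for its gene, giving 9528 genes. All 15 arrays were fitted with limma 3.58.1 (statmod 1.5.0, R 4.3.3) using eBayes with a trend and the animal as a random block, with a consensus correlation of -0.0175, and calls needed p under 0.05 after Benjamini-Hochberg adjustment over the 9528 genes. All adjusted p-values of genes in the text come from limma, and SE is that of its log2 change, with n = 6 tumours, 6 non-tumorous knockout livers and 3 heterozygous livers. The pairing comes from the mouse numbers of the labels; residuals of tumour and liver of 1 mouse correlated at -0.158 to 0.0852, against -0.101 to 0.171 between different mice, so it was not borne out in the residuals. In simulated data of 9528 genes, 100 planted changes of log2 1 and 100 of log2 2 were recovered at 74% and 96% in tumours against non-tumorous knockout livers, 48% and 90% in tumours against heterozygous livers and 57% and 86% in non-tumorous knockout livers against heterozygous livers. False calls were 10, 22 and 19 in the same order. They made up a larger share of the simulated calls than the threshold of 0.05, most so in both comparisons with heterozygous livers. Calls in those comparisons may thus hold at a looser rate than 0.05. The changed genes were drawn from all genes, and members spread more in tumours (median SD 0.63 against 0.43), so these rates may not hold for members. Values are printed for called members, the brightest member of each of 14 subfamilies and the 3 uncalled members with the largest change in each comparison; Cyp2a5, Cyp2c23, Cyp2c29, Cyp2c38, Cyp2c39, Cyp2d9, Cyp2d12, Cyp3a13, Cyp3a25, Cyp4f16 and the shared probe sets were added after their values were seen, as were Nr1i3, Nr1i2, Ppara, Cyp7a1 and Ahr. Of the other lists, called genes or the brightest gene were named, and genes called only with 2 groups in the fit were added after their values were seen. The members and lists were chosen with earlier results of these data known. Genes were named from the platform annotation, and chromosome places and promoters come from RefSeq tables of GRCm38.p6; promoters were aligned end to end with Biopython 1.88. The number of arrays limits the precision.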

Additional observations from a re-analysis of the deposited data

Results flagged for a closer look

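Within each group of 6 samples, the highest and lowest sample of each named member was compared with its neighbour, and 7 of 46 groups tested had a sample apart from the rest. Chance flags about 1 group in 20 only where values are normally distributed. The gaps were taken on linear signals, where high samples stand apart more readily, and some members were named for large changes. The count can thus not be set against that rate. Cyp4a14 had a signal of 540.4 in tumour 6-2, next to 45.2 in the next highest tumour, and of 172.3 in non-tumorous knockout liver 6, next to 25.7, and both samples come from mouse 6. Cyp2c55 had 297.2 in the same non-tumorous liver 6, next to 112.8. Cyp3a11 had 1623.7 in tumour 5-1, next to 9904 in the next lowest tumour. Cyp4f13 had 326.5 in tumour 4, next to 189.6. In non-tumorous knockout liver 5, Cyp2d13 had 903.1, next to 624, and Cyp4f14 had 1752.8, next to 1339.3.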

How the results depend on the processing

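With the actin ratio as a covariate the uncalled changes of Cyp1a2, Cyp2c29, Cyp2e1 and Cyp4a14 in non-tumorous knockout livers against heterozygous livers reversed, to 0.44, 0.096, 0.079 and 0.11 (adjusted p = 0.909 to 0.985). Of the named members' changes that were recomputed, no other reversed. Of members lower in tumours than in heterozygous livers (9), 2 were called with only those groups in the fit, 0 with the actin ratio as a covariate and 5 without a trend in eBayes, and 3 to 14 when 1 array was left out. The low end came without any 1 heterozygous liver, when Cyp2b9, Cyp2d13 and Cyp4f15 were called, and the high end without tumour 4; members called higher were 0 to 1, the 1 being Cyp2c55 without tumour 5-1. With the actin ratio as a covariate the log2 changes of the 9 in tumours ran from -1.85 for Cyp2b9 to -0.31 for Cyp2d10 (adjusted p = 0.244 to 0.765). Over all alternatives, the call was lost in 17 of 26 for Cyp4f13 and 16 of 27 for Cyp2d22. It was lost in 13 of 26 for Cyp2c54 and for Cyp2d10, and in 5 of 26 for Cyp2c50 and for Cyp4f14. Losses were fewest for Cyp2d13 (2 of 27), Cyp4f15 (1 of 26) and Cyp2b9 (1 of 25). Quantile normalization lost Cyp2d10 and Cyp2d22, and centring arrays on their medians lost these and Cyp4f13. Of members lower in non-tumorous knockout livers (1), 13 were called with only those groups in the fit, together with 2 higher, against 0 with the stricter filter, which Cyp2b9 did not pass, and 0 with the actin ratio; leaving out 1 array gave 0 to 3 lower and 0 to 0 higher. In tumours against non-tumorous knockout livers (0 members), leaving out 1 array gave 0 to 1 higher and 0 to 2 lower. All genes called were 13 in tumours against non-tumorous knockout livers, and 4 with no constant, 6 without a trend, 0 with only those groups, 0 with the actin ratio, 0 with the animal as a fixed replicate block in the 4 matched mice, and 0 to 62 leaving out 1 array. They were 655 in tumours against heterozygous livers, 117 with only those groups, 21 with the actin ratio and 216 to 782 leaving out 1 array. They were 160 in non-tumorous knockout livers against heterozygous livers, 994 with only those groups, 21 with the actin ratio, 100 without a trend and 34 to 298 leaving out 1 array. With no replicate block at all the counts were 13, 646 and 160, and 9 and 1 members were lower against heterozygous livers. The cause of these shifts was not tested, and the actin ratio cannot be told apart from the groups. Signals near background limit what can be said of dim members.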

Other observations

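Tumour 4 stood apart for genes around the members, which were picked after their values were seen. Cyp7a1, the rate-limiting enzyme of bile acid synthesis, had signals of 180.3, 6274, 205, 472, 1679 and 413 in tumours 3, 4, 5-1, 5-2, 6-1 and 6-2, 911 to 1712 in non-tumorous knockout livers and 916, 1022 and 1254 in heterozygous livers. Ahr, which encodes the aryl hydrocarbon receptor, had 87.5, 727, 151, 339, 192 and 116 in the same tumours, 153 to 326 in non-tumorous knockout livers and 243, 208 and 297 in heterozygous livers. Tumour 4 was the highest of all 15 arrays for both genes, and neither gene was called in a comparison.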
